A study of Mus musculus with 9 samples.

Results

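The genes described here are the microRNA genes of the mouse brain that had enough reads to be followed in a total RNA library. They were chosen by name and by level: every entry named as a microRNA gene with at least 0.4 RPM (the share of a library's reads, scaled to 1000000) in at least 3 of the 9 libraries was kept, whichever group those libraries came from. This rule kept 222 of the 981 microRNA entries in the table (22.6%) and of its 38621 genes. Of these members, 214 were hairpin entries and 8 were spliced host transcripts, whose names end in hg. Because the measured levels chose the members, the levels are given as a description. At 0.4 RPM a library held between 9.2 and 11.8 reads on the entry. The nearest entries below the limit were Mir7013 and Mir1843a, each with 0.396 RPM in its third-highest library, and the nearest above were Mir682 and Mir7050 at 0.406 RPM.

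RNA-seq was carried out on brain tissue of C57BL/6 mice, 3 in each of 3 groups. The sham mice are labelled untreated in the sample records, whereas the methods of the study describe a saline injection, the ICH mice received an injection of their own blood into the brain as a model of intracerebral hemorrhage, and the feb mice were given febuxostat by gavage before the same blood injection. Febuxostat inhibits xanthine oxidase, the enzyme that makes uric acid. The region of the brain and the time after injection are not given for these libraries, no group received febuxostat without blood, and the numbers of the mice do not pair them across groups.

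A microRNA is cut from a hairpin within a longer primary transcript. Drosha and Dgcr8 release the hairpin in the nucleus, Dicer1 cuts it again in the cytoplasm, and one strand of the duplex is loaded onto an Argonaute protein, where the seed near its 5′ end pairs with target messenger RNAs. Mature microRNAs are too short for a library of this kind, so reads on a hairpin entry come from longer RNA: the primary transcript, the messenger RNA or noncoding RNA in which the hairpin lies, or a transcript of the opposite strand. The values below are therefore levels of RNA over microRNA genes and not of mature microRNAs.

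The mature sequences below belong to the members on which the results turn, and to the hairpins carried by the Mir17hg host transcript, which were themselves under the limit. They were taken from RefSeq (GRCm38.p6), run 5′ to 3′, and have the seed, bases 2 to 8, in capitals. The first set is from Mir29b-2 and Mir29c, which lie side by side at chr1:195037040-195037120 and chr1:195037547-195037634 (GRCm38, plus strand) and share 1 seed.
miR-29b-3p: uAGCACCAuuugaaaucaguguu
miR-29c-3p: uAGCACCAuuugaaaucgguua

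The second set is from the Mir17hg transcript (chr14:115042879-115046727, plus strand). It is shown because miR-17-5p and miR-20a-5p share a seed, as do miR-19a-3p and miR-19b-3p, so that the 6 arms printed hold 4 different seeds.
miR-17-5p: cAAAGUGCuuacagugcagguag
miR-18a-5p: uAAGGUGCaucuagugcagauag
miR-19a-3p: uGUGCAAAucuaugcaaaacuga
miR-20a-5p: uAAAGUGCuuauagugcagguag
miR-19b-3p: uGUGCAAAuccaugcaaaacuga
miR-92a-3p: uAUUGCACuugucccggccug

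The third set shows a pair cut from opposite strands of 1 place. Mir24-1 (chr13:63301208-63301275, plus strand) lies within Mir3074-1 (chr13:63301199-63301283, minus strand), so reads on them could not be told apart without strand.
miR-24-3p: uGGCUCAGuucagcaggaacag
miR-3074-5p: gUUCCUGCugaacugagccagu

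The fourth set is from members that passed the criteria of the study in 1 or more comparisons, or had the lowest p-values, and from the imprinted region of chromosome 12.
miR-7090-5p: uCUCAGAGuugggacaccaugag
miR-7000-3p: cACCCACCugccuguccuccag
miR-214-3p: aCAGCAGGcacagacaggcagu
miR-1291: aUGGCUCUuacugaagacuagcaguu
miR-6363: uGUAGACUggacuguccucaaa
miR-7654-3p: cGAGCGGGagcgcgccucgucc
miR-770-3p: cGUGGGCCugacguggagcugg
miR-433-3p: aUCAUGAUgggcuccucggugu
miR-127-3p: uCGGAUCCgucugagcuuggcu
miR-434-3p: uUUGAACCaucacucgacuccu
miR-136-5p: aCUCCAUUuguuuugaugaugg

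A mature sequence was found in RefSeq for 186 of the 214 hairpin members, with the 7 on chromosome 18 not looked up. Their 301 mature sequences held 284 different seeds, and 17 seeds were shared by more than 1 member. The shared seeds included those of Mir9-1 and Mir9-2, of Mir219a-1 and Mir219a-2, and of Mir214 and Mir761. No more than 2 members shared any of these 17 seeds.

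Most members lay inside another gene. By the exon positions of the table, 120 of the 214 hairpins lay in an exon of a gene on the same strand, 58 in an intron on the same strand, 14 opposite an exon, 6 opposite an intron, and 16 outside other genes. The hairpins inside another gene were thus 198, or 92.5%, and 154 of their host genes were protein-coding. In the GENCODE annotation (release M21), 60 hairpins overlapped a coding exon, 26 a UTR of a coding transcript, and 18 an exon of a transcript with a retained intron. Median levels over the 9 mice were 1.18 RPM for hairpins in same-strand exons, 0.556 RPM in same-strand introns and 12.4 RPM for the 8 host transcripts. For the hairpins inside exons, reads of the host transcript that cross the hairpin also fall on its entry. Although the study names a stranded library kit, strand could not be used on the deposited values to separate them. Over all short genes that lay inside an exon of a well-read gene, the median log2 ratio of their RPKM to that of the exon's gene was 0.02 for the 33 on the other strand and -0.64 for the 161 on the same strand.

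**Figure D1:**
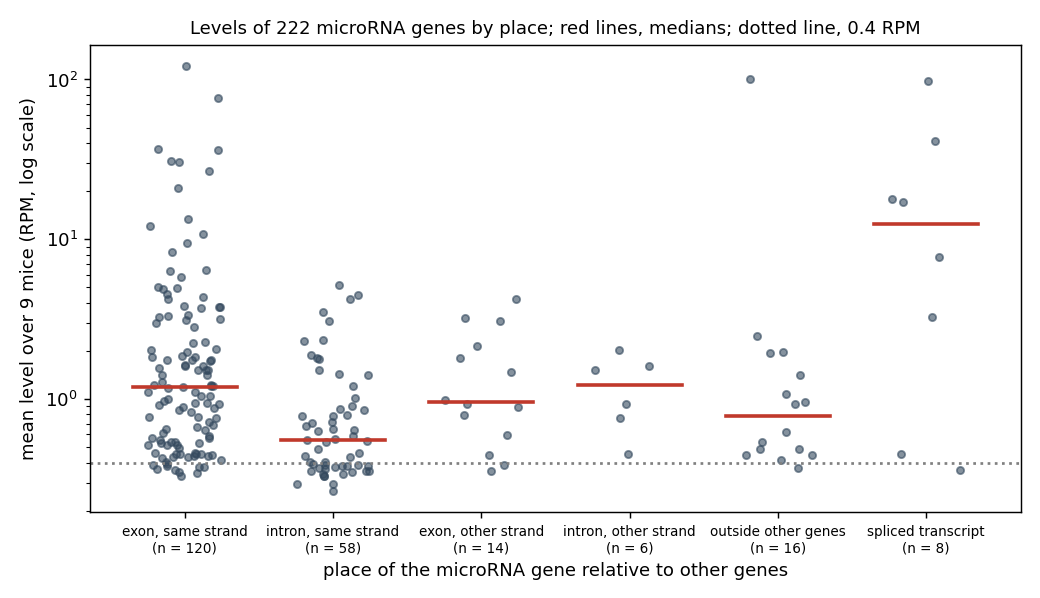
Mean level over the 9 mice in RPM (log axis) of each of the 222 microRNA genes, by its place relative to other genes, with 1 point per gene and a red line at the median. Hairpins in same-strand introns had the lowest median (0.556 RPM) and the 8 spliced host transcripts the highest (12.4 RPM), and the dotted line marks the limit of 0.4 RPM in single libraries.

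Levels were low for most members. The mean over 9 mice was at least 10 RPM for 16 members, at least 1 RPM for 101 and under 1 RPM for 121, and 103 members had no more than 30 reads in any mouse. The coefficient of variation over the 9 mice had a median of 36.5% among members under 1 RPM and 18.6% among those of at least 10 RPM. In all 9 libraries 128 members reached 0.4 RPM, and 22 reached it in exactly 3. Only Mir17hg reached it in the 3 mice of 1 group and in no other mouse. Hairpins with near-identical copies elsewhere in the annotation (at least 95% identity) numbered 14 of 213 searched, among them Mir1906-1, Mir344i, Mir682 and 7 hairpins of the Mir467a family, and their reads may be split between copies.

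The 10 members with the highest RPM were, in order, Mir770, Mir6236, Mir124a-1hg, Mir5121, Mir124-2hg, Mir5114, Mir1906-1, Mir3064, Mir7654 and Mir5129. All of them except Mir6236 and the 2 host transcripts lay in a same-strand exon. Mir770 and Mir1906-1 lay in Meg3, an imprinted long noncoding RNA, Mir5121 in Rpl13a, a ribosomal protein gene, Mir5114 in Scd2, a fatty acid desaturase, Mir3064 in Ddx5, an RNA helicase that works with Drosha, Mir7654 in Arglu1, a splicing regulator, and Mir5129 in Zeb2, a transcription factor. Per kilobase of its own length, Mir770 had a mean of 1293 RPKM and Meg3 as a whole 319.5 RPKM. Mir5121 had 1039 RPKM and Rpl13a 159.3 RPKM, and Mir7654 had 438 RPKM and Arglu1 22.8 RPKM. How reads that overlap a short entry only in part were counted is not given. These RPKM values therefore do not compare amounts of hairpin and host RNA. Across the 9 mice the log2 levels of Mir770 and Meg3 had a Pearson r of 0.97, those of Mir5121 and Rpl13a 0.93, those of Mir7654 and Arglu1 0.98, and those of Mir3064 and Ddx5 0.40. Each pair shares its libraries and, in the exon, its reads.

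Mir6236, at chr9:110281287-110281409 and outside other genes, was the only hairpin with a mean of at least 10 RPM that lay outside other genes. It was on the list of microRNA entries that match ribosomal RNA, of which 1 of 5 names was a member. Its levels were 123, 110 and 127 RPM in the sham mice, 119, 99.3 and 73.0 RPM in the ICH mice and 78.4, 121 and 54.8 RPM in the feb mice. Over the 9 mice it had a Pearson r of 0.89 on the log2 scale with Gm42418 and with AY036118. With Gm26917, the last of the noncoding genes compared with it, the r was -0.09. The groups overlapped in all 3 comparisons, and the libraries had been depleted of ribosomal RNA before sequencing.

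Between 23065757 and 29538009 reads per library were counted on genes, and the members together took 891 to 1119 RPM of them. The sums of the marker genes showed brain tissue in every library. Neuron markers summed to 408 to 454 RPKM in the sham mice, 480 to 516 RPKM in the ICH mice and 426 to 467 RPKM in the feb mice, so the ICH mice were above all others. Glia markers summed to 564 to 881, 594 to 1002 and 527 to 676 RPKM, and 4 of the 9 were lower in all feb than in all ICH mice, against 11.9% of all genes tested. Ependymal cilia markers summed to 11.8 to 18.5 RPKM in the sham, 12.8 to 17.1 RPKM in the ICH and 11.9 to 18.25 RPKM in the feb mice. The 8 choroid plexus markers summed to 365 to 1035 RPKM in the sham mice, 458 to 967 RPKM in the ICH mice and 30.6 to 88.4 RPKM in the feb mice. Blood cell markers summed to 33.5 to 42.2 RPKM, 27.03 to 125 RPKM and 17.6 to 22.5 RPKM in the sham, ICH and feb mice, and meningeal markers to 9.89 to 27.1, 11.4 to 24.4 and 6.41 to 10.96 RPKM. No marker of these lists was at 0 in all libraries. The part of these differences in the results below was not tested. In bulk tissue, fewer cells of a type and less RNA per cell cannot be told apart.

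To ask which microRNA genes changed after hemorrhage, and which differed with febuxostat, each gene was tested with limma on log2(RPM + 0.1) over all 22620 genes that met the same limit. It was called when the unadjusted p was under 0.05 and the fold change over 2. The criteria are those of the study's methods. A fold change on this scale understates that of low genes. Few members passed. In ICH against sham mice, 2 members were higher (0.901% of the members, against 1.11% of all genes tested) and 3 were lower (1.35% against 0.668%). In feb against ICH mice, 4 members were higher (1.8% against 0.685%) and 3 lower (1.35% against 0.999%). In feb against sham mice, 5 were higher (2.25% against 1.06%) and 1 was lower (0.45% against 0.367%). No member had a Benjamini-Hochberg adjusted p under 0.05 by limma in any comparison, although Mir6903 and Mir5121 did in ICH against sham when sham mouse 2 was left out. Of all genes, 0% did in ICH against sham, 0.0221% in feb against ICH and 0% in feb against sham. Without the fold limit, an unadjusted p under 0.05 was reached by 29 members (13.1%, all genes 15.2%), 30 members (13.5%, all genes 13%) and 29 members (13.1%, all genes 9.69%) in these 3 comparisons. Each p-value sets a difference between group means against the spread between the 3 mice within each group. In the fit this spread was pooled over all groups, including the group outside the comparison, and moderated across genes by limma.

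**Figure D2:**
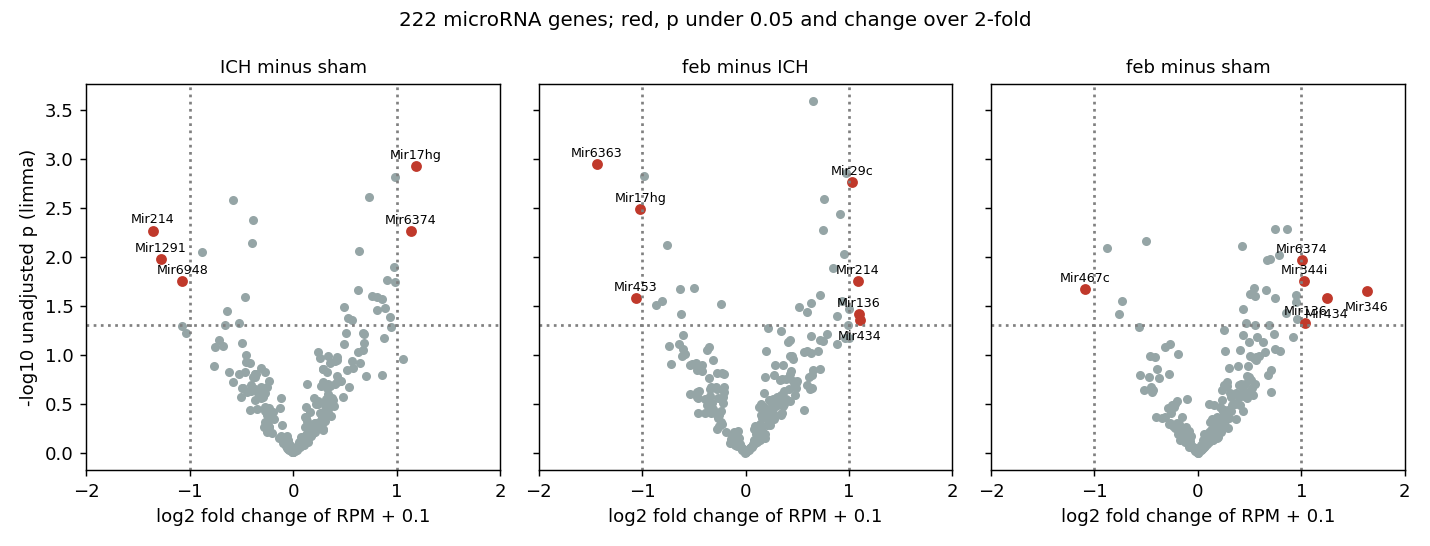
Log2 fold change of RPM + 0.1 (x axis) and the negative log10 of the unadjusted limma p (y axis) of the 222 members in each comparison. Red points are the members with p under 0.05 and a change over 2-fold, 5 in ICH against sham, 7 in feb against ICH and 6 in feb against sham, and the dotted lines mark both limits.

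Members were also counted by whether the groups overlapped. Every ICH mouse was above every sham mouse for 26 members (all genes 15.2%) and below for 20 (all genes 6.7%). The feb mice were all above the ICH mice for 23 members (all genes 7.29%) and all below for 24 (all genes 11.9%). They were all above the sham mice for 25 (all genes 7.66%) and all below for 3 (all genes 5.48%). As shares of the 222 members these counts were 11.7%, 9.01%, 10.4%, 10.8%, 11.3% and 1.35%. The median log2 fold change of the members was 0.12, 0.10 and 0.14 in the 3 comparisons, and that of all genes tested 0.09, -0.03 and 0.05.

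Mir17hg, the host transcript of the Mir17-92 cluster known for its role in cell growth, was among the members called higher in ICH mice. It was at 0.237, 0.268 and 0.320 RPM in the sham mice, 0.654, 0.989 and 0.649 RPM in the ICH mice and 0.340, 0.317 and 0.303 RPM in the feb mice, which is 7 to 9 reads, 16 to 26 reads and 7 to 9 reads. The ICH mice stood above all others, and the sham and feb mice overlapped. The log2 fold change was 1.19 ± 0.26 (SE) in ICH against sham and -1.02 ± 0.26 in feb against ICH. Mir17hg became a member only through its ICH mice, so it had to differ there and its change is a description. Without ICH mouse 2 or feb mouse 3 the difference between feb and ICH was under the fold limit (-0.84 and -0.99). It was so too with equal medians (-0.97) and on log2(RPKM + 0.1) with a filter on RPKM (-0.72), on which ICH against sham gave 0.82. Of the 16 names on the list of this cluster and its paralogs, 12 were in the table and Mir17hg alone was a member. None of the others reached more than 0.458 RPM in any library.

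Mir7090, in a retained-intron transcript of the β-catenin gene Ctnnb1 (chr9:120955086-120955147), moved in the same way. Its levels were 0.779, 0.689 and 0.712 RPM in the sham mice, 1.72, 1.52 and 1.37 RPM in the ICH mice and 0.869, 0.555 and 0.780 RPM in the feb mice. The ICH mice lay above both other groups, which overlapped. A log2 fold change of 0.98 ± 0.23 (SE) in ICH against sham fell just short of the 2-fold limit (unadjusted p = 0.00152, adjusted p = 0.237 by limma), as did that of -0.99 ± 0.23 in feb against ICH (unadjusted p = 0.00149, adjusted p = 0.19). Ctnnb1 itself differed by 0.14 and -0.26 on the log2 scale. The log2 ratio of hairpin to host differed by 0.85 and -0.73, each with an exact two-sided permutation p of 0.1, the smallest that 3 mice against 3 can give.

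Mir7000, in an intron of Mapk8ip1, a scaffold of the JNK pathway, was at 3.18, 3.94 and 2.77 RPM in the sham mice, 4.90, 5.09 and 6.68 RPM in the ICH mice and 4.04, 3.49 and 4.08 RPM in the feb mice. The ICH mice were again the highest, without overlap. ICH against sham gave a log2 fold change of 0.74 ± 0.18 (SE, limma unadjusted p = 0.00243, adjusted p = 0.249), below the fold limit. Mapk8ip1 differed by -0.05.

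Mir6374, in an intron of Tet3, an enzyme that oxidizes methylated cytosine in DNA, was the other member called higher in ICH mice. It was at 0.305, 0.421 and 0.178 RPM in the sham mice, 0.613, 0.760 and 0.916 RPM in the ICH mice and 0.944, 0.634 and 0.520 RPM in the feb mice. Both groups with hemorrhage lay above the sham mice, and they overlapped each other. The log2 fold change against sham was 1.14 ± 0.32 (SE) in ICH mice (adjusted p = 0.252) and 1.01 ± 0.32 in feb mice (adjusted p = 0.47), by limma. These values rest on 5 to 25 reads in a library, and the calls were lost without sham mouse 3 (0.90 and 0.77) and, in feb mice, without feb mouse 1 (0.80). The call in feb mice was also lost with equal medians (0.98), quantile normalization (0.87) and TMM factors (0.96).

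Mir214, in an exon of Dnm3os, a noncoding RNA of connective tissue cells, was called lower in ICH mice. It was at 0.474, 0.803 and 0.676 RPM in the sham mice, 0.368, 0.0760 and 0.191 RPM in the ICH mice and 0.416, 0.673 and 0.477 RPM in the feb mice. The ICH mice were below every other mouse, with 2 to 9 reads. By limma the change was -1.36 ± 0.38 (log2, SE) in ICH against sham (adjusted p = 0.252) and 1.09 ± 0.38 in feb against ICH (adjusted p = 0.296). Dnm3os differed by -0.05 and 0.23 in the same comparisons. Without ICH mouse 2 or feb mouse 2 the call in feb against ICH was lost (0.73 and 0.92), as it was with quantile normalization (0.99).

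Mir1291 lies within Snora34, a small nucleolar RNA, and the 2 entries had nearly the same reads, with a Pearson r of 0.996 over the 9 mice. Mir1291 was at 1.56, 1.26 and 1.85 RPM in the sham mice, 0.694, 0.418 and 0.649 RPM in the ICH mice and 1.06, 2.57 and 0.694 RPM in the feb mice. ICH mice were below the sham mice without overlap, and the feb mice overlapped both. The log2 fold change in ICH against sham was -1.28 ± 0.41 (SE, adjusted p = 0.257 by limma), and Snora34 was lower by a log2 fold change of -1.15. Other structural RNAs were lower in the same mice. All 6 tested of a list of 7 (7SL, 7SK, Rmrp and Rpph1 entries) were below the sham mice in every ICH mouse, against 6.7% of all genes tested. Their median log2 fold change was -0.36. None of the 6 was called, 4 had an unadjusted p under 0.05, and the part of this shift in the value of Mir1291 was not tested. Mir6516, inside the small Cajal body RNA Gm26083, also followed its host with an r of 0.999, and its groups overlapped. Mir6948, in an intron of Acin1, was the last member called lower in ICH mice. It had 7 to 13 reads in the sham mice, 3 to 4 in the ICH mice and 4 to 15 in the feb mice. Its log2 fold change of -1.07 ± 0.38 missed the fold limit without sham mouse 1 (-0.99) or 3 (-0.96). Fewer than 3 libraries outside the sham group reached 0.4 RPM, so Mir6948 became a member only with its sham mice. High sham values helped to choose it, and its change is a description.

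Among the well-read members, Mir5114 and Mir5121 were lower in every ICH mouse than in any sham mouse. Mir5114, in a coding exon of Scd2 (chr19:44303171-44303231), was at 49.2, 39.4 and 49.7 RPM in the sham mice, 31.0, 28.2 and 32.5 RPM in the ICH mice and 29.1, 40.4 and 28.9 RPM in the feb mice. ICH against sham gave a log2 fold change of -0.59 ± 0.15 (SE, limma unadjusted p = 0.0026), which is under the 2-fold limit. Scd2 as a whole was lower by a log2 fold change of -0.31. Mir5121 was at 92.6, 76.6 and 93.5 RPM in the sham mice and 62.6, 73.4 and 63.9 RPM in the ICH mice, a log2 fold change of -0.39 ± 0.11 (unadjusted p = 0.00422), beside -0.32 for Rpl13a.

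**Figure D3:**
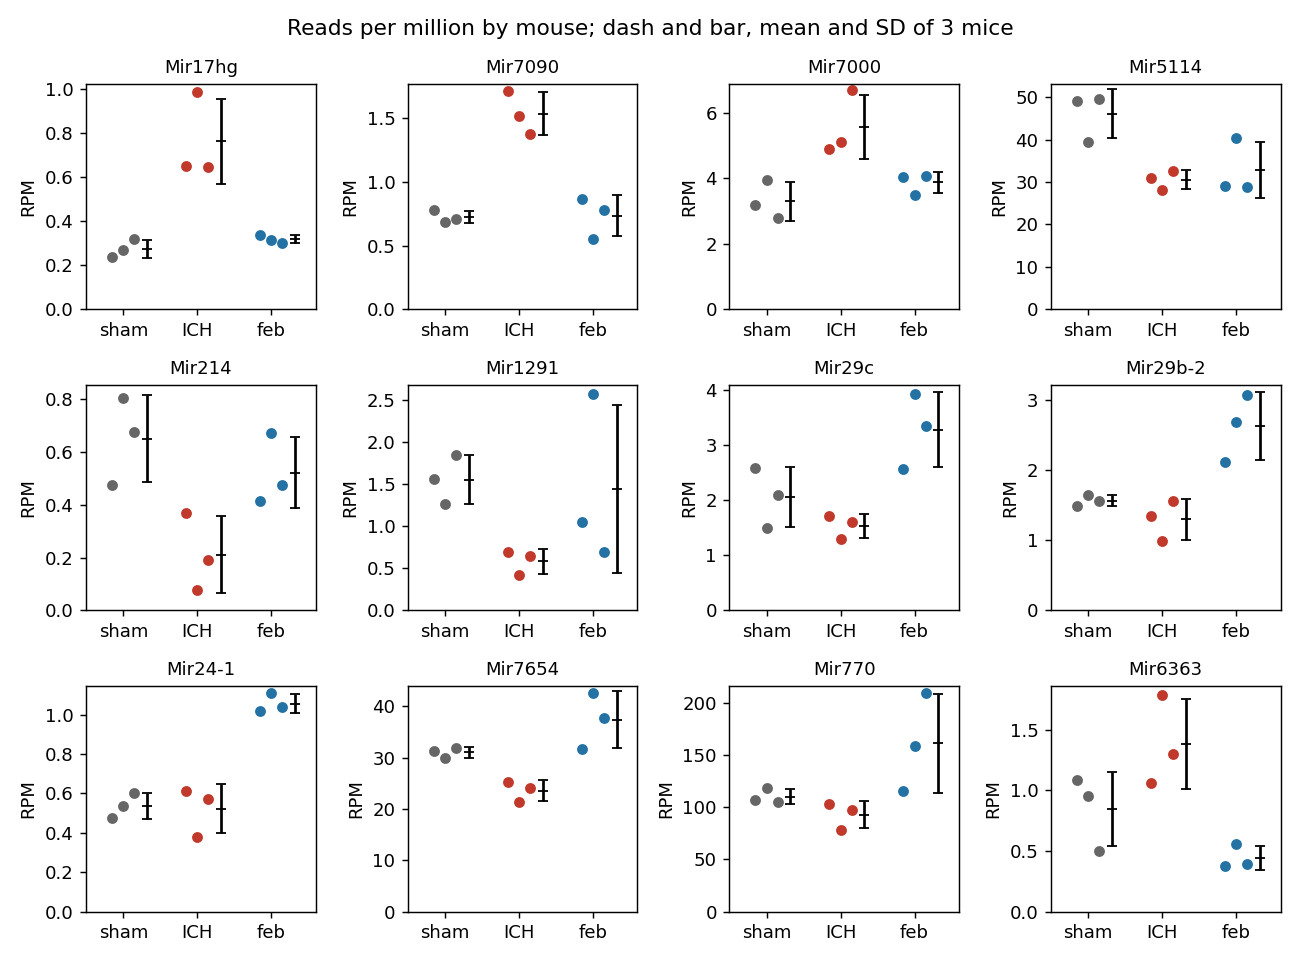
RPM of 12 members in each mouse (points) with the mean and SD of the 3 mice of each group (dash and bar), each panel starting at 0. ICH mice were highest for Mir17hg, Mir7090 and Mir7000 and lowest for Mir214 and Mir7654, and feb mice were highest for Mir29b-2 and Mir24-1 and lower than all ICH mice for Mir6363.

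Febuxostat-treated mice were set against ICH mice next, bearing in mind that the choroid plexus markers above were at 30.6 to 88.4 RPKM in feb mice and at least 458 RPKM in ICH mice. Mir29c and Mir29b-2, which share a seed and lie in a retained-intron transcript of the noncoding gene A330023F24Rik with exons of Cd46 on the other strand, were both higher in all feb than in all ICH mice. Mir29c was at 2.57, 1.49 and 2.10 RPM in the sham mice, 1.72, 1.29 and 1.60 RPM in the ICH mice and 2.57, 3.92 and 3.34 RPM in the feb mice. Mir29b-2 was at 1.49, 1.65 and 1.57 RPM, 1.35, 0.989 and 1.57 RPM, and 2.12, 2.69 and 3.08 RPM in the same order. The log2 fold change in feb against ICH was 1.03 ± 0.24 (SE) for Mir29c, which was called, and 0.97 ± 0.22 for Mir29b-2, which missed the fold limit (adjusted p = 0.196 and 0.19 by limma). The gene around them differed by 0.29, and the log2 ratios to it by 0.74 and 0.68, each with an exact permutation p of 0.1. Mir29c was under the fold limit without ICH mouse 2 (0.92) or feb mouse 2 (0.90). Both microRNAs are known for targets among collagen and other matrix genes.

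Mir24-1 and the overlapping Mir3074-1 had their highest mean levels in feb mice. Mir24-1 was at 0.474, 0.536 and 0.605 RPM in the sham mice, 0.613, 0.380 and 0.573 RPM in the ICH mice and 1.02, 1.11 and 1.04 RPM in the feb mice, with no overlap between feb and the other mice. Feb against ICH gave a log2 fold change of 0.92 ± 0.24 (SE, limma unadjusted p = 0.00366) and feb against sham one of 0.86 ± 0.24 (unadjusted p = 0.00525), both under the fold limit. Mir3074-1 was at 1.301 to 1.67 RPM in the sham mice and 2.12 to 2.89 RPM in the feb mice (log2 fold change 0.74 ± 0.21, unadjusted p = 0.00519). In feb against ICH mice its log2 fold change was 0.42, and those groups overlapped. The third hairpin of this place, Mir27b, had log2 fold changes of 0.34 and 0.15 and overlapping groups. The gene around all 3, 2010111I01Rik, differed by -0.04 in feb against ICH mice and 0.11 in feb against sham mice.

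Mir7654, in a coding exon of Arglu1, had the lowest p of any member in feb against ICH. It was at 31.2, 29.9 and 31.9 RPM in the sham mice, 25.3, 21.4 and 24.0 RPM in the ICH mice and 31.6, 42.7 and 37.8 RPM in the feb mice. The ICH mice were below both other groups. Its log2 fold change was 0.66 ± 0.12 (SE, unadjusted p = 0.000257, adjusted p = 0.157 by limma) in feb against ICH and -0.40 ± 0.12 in ICH against sham (unadjusted p = 0.00727). Arglu1 differed by 0.51 and -0.31, and its reads over the hairpin cannot be told apart from those of the hairpin.

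Mir6363, opposite an exon of the noncoding RNA Dubr (chr16:50727132-50727245), was the member with the largest fall in feb against ICH mice. It was at 1.08, 0.956 and 0.498 RPM in the sham mice, 1.06, 1.79 and 1.298 RPM in the ICH mice and 0.378, 0.555 and 0.390 RPM in the feb mice. The feb mice were all below the ICH mice, with a log2 fold change of -1.44 ± 0.32 (SE, adjusted p = 0.182 by limma). Dubr differed by -0.66 on the log2 scale in the same mice, and the 2 genes had a Pearson r of 0.80 over the 9 mice. Reads on them cannot be told apart without strand.

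The imprinted Dlk1-Dio3 region of chromosome 12 held 28 members, more than any other place. Its maternally expressed noncoding RNAs, Meg3, Rian and Mirg, carry most of its microRNAs, and several hairpins lie opposite Rtl1, a paternally expressed gene derived from a retrotransposon. Of the 56 names on the list for this region, 54 were in the table and 25 were members. None of these 25 was called in ICH against sham (median log2 fold change 0.14), 2 were called higher and 1 lower in feb against ICH (median 0.27), and 2 were called higher in feb against sham (median 0.22). Over all genes tested, 0.685% were called higher and 0.999% lower in feb against ICH, and 1.06% higher in feb against sham, with medians of -0.03 and 0.05. The 2 called higher, Mir434 and Mir136, became members only through their feb mice. The 1 called lower, Mir453, became a member only with its ICH mice. The list names were drawn with earlier results of these data known.

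Mir770 was the most abundant member of all. It was at 107, 119 and 105 RPM in the sham mice, 103, 78.3 and 97.9 RPM in the ICH mice and 115, 159 and 210 RPM in the feb mice. The ICH mice were below all others. Its log2 fold change was 0.76 ± 0.19 (SE, unadjusted p = 0.00259, adjusted p = 0.212 by limma) in feb against ICH, under the fold limit, and that of Meg3 was 0.85. Their log2 ratio differed by -0.09. Mir1906-1, in another exon of Meg3 and with an identical copy in the annotation, had a log2 fold change of 0.21 ± 0.25, and its ratio to Meg3 differed by -0.64 with an exact permutation p of 0.1.

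All 7 hairpins over Rtl1 (Mir433, Mir432, Mir127, Mir434, Mir431 and Mir136 on the other strand, Mir3071 on its own) had log2 fold changes above 0 in feb against ICH, from 0.11 to 1.11, and Mir434 and Mir136 were called. In this comparison 45.6% of all genes tested and 56.8% of the members were above 0. The 7 lie over 1 gene and may share its reads, so they are not independent. Mir434 was at 0.0677, 0.344 and 0.462 RPM in the sham mice, 0.449, 0.152 and 0.305 RPM in the ICH mice and 0.982, 0.555 and 0.694 RPM in the feb mice. Mir136 was at 0.237, 0.115 and 0.356 RPM, 0.408, 0.0760 and 0.229 RPM, and 0.453, 0.436 and 0.867 RPM in this order. The feb mice were above all others for both. Neither reached 0.4 RPM in 3 libraries outside the feb group, so both became members only through their feb mice. High feb values chose them, and their changes are a description. Their log2 fold changes were 1.11 ± 0.48 and 1.09 ± 0.46 (SE) in feb against ICH and 1.25 ± 0.48 and 1.04 ± 0.46 in feb against sham (adjusted p = 0.372, 0.363, 0.484 and 0.514 by limma). Rtl1 differed by 0.55 and 0.49 in these comparisons. In feb against ICH both calls were lost without ICH mouse 2 (0.81 for Mir434 and 0.69 for Mir136), ICH mouse 3 (1.15 and 1.14) or feb mouse 3 (1.14 and 0.82), and that of Mir434 without feb mouse 1 (0.91). The call of Mir434 was also lost with a pseudocount of 0.02 RPM (1.32) and on log2(RPKM + 0.1) with a filter on RPKM (1.36). In feb against sham that of Mir434 was lost without sham mouse 1 (0.72), feb mouse 1 (1.05) or feb mouse 3 (1.28), and that of Mir136 without any 1 of sham mice 1 and 2, ICH mouse 3 and the feb mice (0.75 to 1.19). For Mir136 it was lost as well with a pseudocount of 0.02 RPM (1.29), on the RPKM scale with its filter (1.35), with quantile normalization (0.91) and with TMM factors (0.996). Mir433, the best-read of the 7, was at 1.32 to 3.52 RPM in the sham mice, 1.95 to 3.47 RPM in the ICH mice and 3.36 to 6.68 RPM in the feb mice, and its feb and ICH mice overlapped. Its Pearson r with Rtl1 over the 9 mice was 0.93.

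The 7 members inside Mirg had a median log2 fold change of -0.39 in feb against ICH, and 2 of them were above 0. Mir453, in an intron of Mirg, was called lower, at 0.694, 0.570 and 0.382 RPM in the ICH mice and 0.264, 0.238 and 0.130 RPM in the feb mice, while its sham mice spread from 0.213 to 0.689 RPM. Its log2 fold change was -1.06 ± 0.41, and the call was lost without ICH mouse 1 (-0.90), ICH mouse 2 (-1.02) or feb mouse 3 (-0.86). Fewer than 3 libraries outside the ICH group reached 0.4 RPM, so Mir453 became a member only with its ICH mice. High ICH values helped to choose it, and its change is a description. Mirg itself differed by -0.07. The 3 members in Rian (Mir1188, Mir341 and Mir370) had log2 fold changes from 0.18 to 0.36, none of which passed the test.

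**Figure D4:**
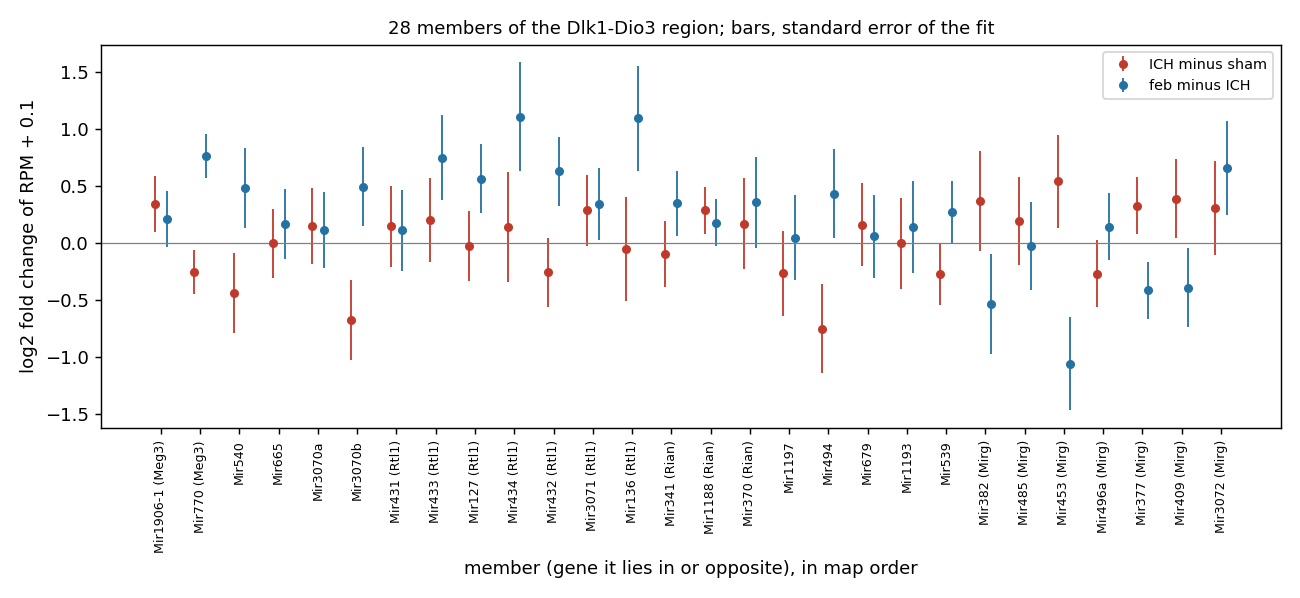
Log2 fold change of RPM + 0.1 of the 28 members of the Dlk1-Dio3 region in map order, with the standard error of the fit as bars, for ICH against sham (red) and feb against ICH (blue). The hairpins over Rtl1 were at or above 0.11 in feb against ICH and those in Mirg had a median of -0.39, with many bars that cross 0.

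In feb against sham mice, Mir346, Mir434, Mir136, Mir344i and Mir6374 were called higher and Mir467c lower. Mir346, in an intron of Grid1, had 0, 11 and 2 reads in the sham mice and 12, 9 and 22 reads in the feb mice, and these overlapped despite a log2 fold change of 1.63 ± 0.60 (SE, adjusted p = 0.47 by limma). Mir344i, outside other genes and with a near-identical copy, was at 0.169, 0.230 and 0.320 RPM in the sham mice and 0.416, 0.673 and 0.694 RPM in the feb mice (1.03 ± 0.36). Mir467c, in an intron of Sfmbt2 within the Mir467 cluster, was at 0.745, 0.956 and 0.712 RPM in the sham mice, 0.368, 0.951 and 0.305 RPM in the ICH mice and 0.340, 0.198 and 0.477 RPM in the feb mice (-1.09 ± 0.40 in feb against sham). Fewer than 3 libraries outside the sham group reached 0.4 RPM, so Mir467c became a member only with its sham mice. High sham values helped to choose it, and its change is a description. Of the 8 members in Sfmbt2, the other 7 were not called. Leaving out sham mouse 1, sham mouse 3 or feb mouse 3 ended the call of Mir346 (1.11, 1.495 and 1.28), sham mouse 1, feb mouse 2 or feb mouse 3 that of Mir344i (0.87, 0.94 and 0.92), and sham mouse 2 or feb mouse 2 that of Mir467c (-0.97 and -0.83). The call of Mir344i was also lost with quantile normalization (0.84) and TMM factors (0.99).

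Of the 25 names on the list of brain-enriched microRNAs, 24 were in the table and 10 were members, and none of the 10 was called in any comparison. Mir9-2 was at 1.25 to 1.99 RPM in the sham mice and 2.13 to 2.90 RPM in the ICH mice, without overlap and with a log2 fold change of 0.63 ± 0.34 (unadjusted p = 0.0933 by limma), and Mir9-3hg had one of 0.49 ± 0.20 (unadjusted p = 0.0327). Mir9-1 had one of 0.06. The host transcripts Mir124a-1hg, at 79.2 to 116 RPM, and Mir124-2hg, at 30.8 to 44.6 RPM over all mice, had log2 fold changes between -0.13 and 0.26. The hairpins within them had larger values with larger errors, -1.08 ± 0.49 for Mir124a-1 and -1.04 ± 0.49 for Mir124a-2 in ICH against sham, and their groups overlapped. Mir137, Mir219a-1 and Mir219a-2 had means under 0.7 RPM in every group, and Mir219a-1 was above its sham mice in all feb mice (log2 fold change 0.68).

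Injury and immune microRNAs were nearly out of reach. Of 15 names, 14 were in the table and Mir22 and its host transcript Mir22hg were the 2 members. Mir22hg was at 4.64, 7.04 and 5.73 RPM in the sham mice, 8.41, 10.5 and 8.13 RPM in the ICH mice and 7.86, 7.09 and 10.4 RPM in the feb mice. Both groups with hemorrhage were above the sham mice, with log2 fold changes of 0.64 ± 0.20 (SE, unadjusted p = 0.00879) and 0.54 ± 0.20 (unadjusted p = 0.0209) by limma, under the fold limit. Mir22 had log2 fold changes of 0.43 and 0.78 in the same comparisons. Mir155, Mir146, Mir21a and Mir223, known from inflammation and myeloid cells, had at most 2, 1, 1 and 1 reads in any library. The list of erythroid microRNAs (5 names, 4 in the table), that of activity-induced microRNAs (4 names, 3 in the table) and that of choroid plexus and ciliated cell microRNAs (7 names, 3 in the table) held no member. Their highest single values were 0.0867, 0.458 and 0.163 RPM. At this depth differences in these entries were not detectable.

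Of the let-7 family, 11 of 15 names were in the table and Mirlet7f-1 was the 1 member. It was at 0.305 to 0.574 RPM in the sham mice, 0.531 to 1.14 RPM in the ICH mice and 0.396 to 0.477 RPM in the feb mice. It was not called, with log2 fold changes of 0.68 ± 0.32 in ICH against sham and -0.64 ± 0.32 in feb against ICH (unadjusted p = 0.0609 and 0.0773 by limma). The host transcript Mir99ahg, which spans Mir99a, Mirlet7c-1 and Mir125b-2, was at 14.3 to 15.6 RPM in the sham mice, 15.6 to 20.4 RPM in the ICH mice and 18.7 to 23.6 RPM in the feb mice, with a log2 fold change of 0.43 ± 0.13 in feb against sham (unadjusted p = 0.00768). Mir670hg and Mir133a-1hg, the remaining host transcripts, overlapped between groups.

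The genes that make and load microRNAs were also set beside them. Of 23 names, 21 were tested, and none was called in any comparison. Median log2 fold changes were 0.06, 0.01 and 0.08, beside 0.09, -0.03 and 0.05 over all genes. Drosha differed by -0.07 and 0.01 in ICH against sham and feb against ICH, Dgcr8 by -0.05 and 0.14, Dicer1 by 0.04 and 0.09, and Ago2 by 0.04 and -0.13. Those with an unadjusted p under 0.05 by limma were Tnrc6c in ICH against sham (0.28), and Tnrc6a (0.28) and Lin28b (0.56), a block on let-7 processing, in feb against ICH.

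Hairpins were finally compared with the genes around them. In ICH against sham, 144 of the 198 hairpins inside a gene had a log2 fold change of the same sign as that gene, in feb against ICH 129, and in feb against sham 134. Over the 9 mice the correlation of hairpin and host had a median Pearson r of 0.588 for the 120 in same-strand exons, 0.792 for the 14 opposite an exon and 0.39 for the 58 in same-strand introns. It was over 0.5 for 71, 12 and 23 of them, and below 0 for 12, 0 and 17. Hairpin and host share the library in all of these and overlapping reads in the exons, so the values describe these libraries.

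**Figure D5:**
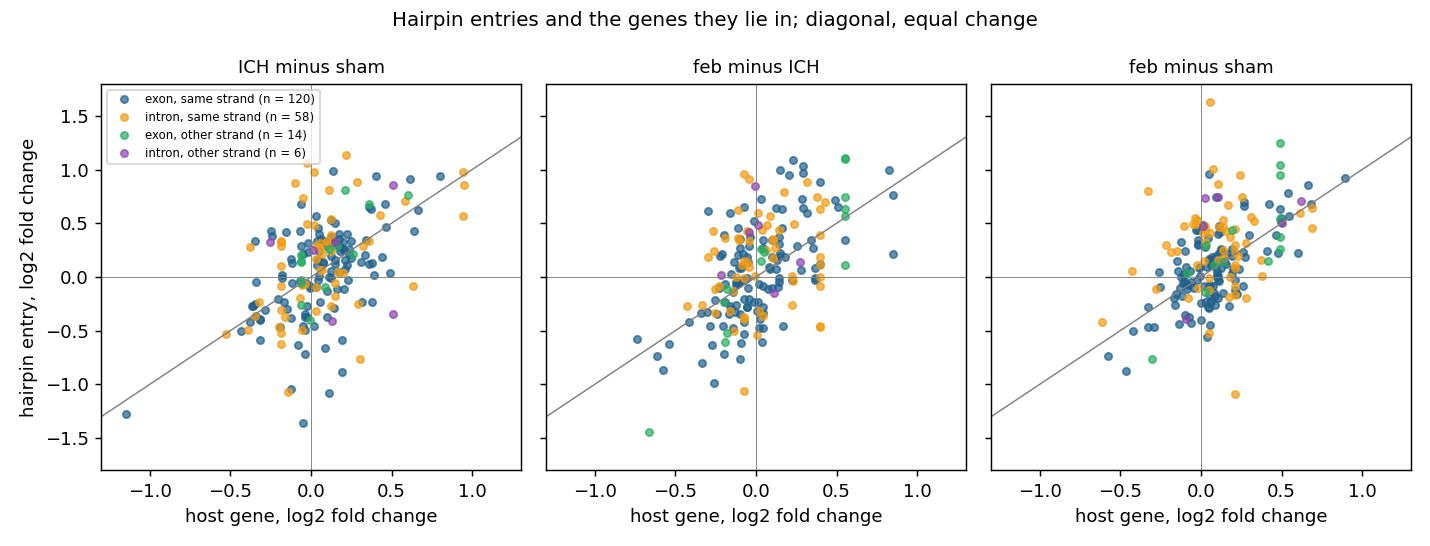
Log2 fold change of each of the 198 hairpin entries inside another gene (y axis) against that of the gene (x axis) in each comparison, by place, with the line of equal change. Hairpin and gene had the same sign for 144, 129 and 134 of the 198 in ICH against sham, feb against ICH and feb against sham.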

How the data were processed

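Total RNA of 9 mouse brains was depleted of ribosomal RNA, made into libraries with a stranded kit, and sequenced as paired reads with molecular identifiers. Per the labels and methods, the authors trimmed reads with Trimmomatic 0.36, aligned them to GRCm38, counted them on exons with featureCounts (Subread 1.5.1), tested with edgeR 3.12.1, and deposited RPKM values with exon lengths and positions. The annotation release, the strand setting and the treatment of reads on overlapping genes are not given in the sources used here. The table had 0 columns of other samples.

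From the deposited RPKM, RPM was computed as RPKM times length in kilobases. It sums to 1000000 in every library, and 100% of values came out as whole reads (within 0.02 of a read, a limit that widened with the count). Tests used limma 3.58.1 (R 4.3.3, eBayes with trend, all 9 samples in 1 fit) on log2(RPM + 0.1), with Benjamini-Hochberg adjustment over 22620 genes, and were checked on simulated data. Host ratios used two-sided exact permutation tests, whose smallest p is 0.1. Positions were compared with GENCODE M21, where 218 of 222 members were identical, and mature sequences came from RefSeq. Copies were searched with BLAST 2.17.0, and tables and figures were made with Python 3.11.15, pandas 2.3.3 and matplotlib 3.10.9.

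Members with values are the 10 of highest RPM, those called, the 3 of lowest p per comparison, and the members of lists of microRNA families, with hosts. Others named beside them were chosen after their values were seen. The members and lists were chosen with earlier results of these data known. Alternatives tried were the pseudocount, filters, scale, normalization, model, replicate block and leaving out each mouse.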

Additional observations from a re-analysis of the deposited data

How the results depend on the processing

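No called member changed sign under any alternative. The numbers called are small and depended on the settings. A pseudocount of 0.02 RPM called 8 higher and 5 lower in ICH against sham, 8 and 5 in feb against ICH, and 2 lower in feb against sham. A pseudocount of 0.5 RPM called 0 in every comparison and direction, since it shrinks the fold change of low genes. A limit of 1 RPM called 0 and 1, 1 and 1, and 0 and 0. The RPKM scale together with its own filter (RPKM of at least 0.1) called 9 higher in ICH against sham, 10 higher in feb against ICH and 2 lower in feb against sham. With voom and TMM factors together, on the recovered reads, they were 6 and 5, 9 and 5, and 2 lower in feb against sham. Equal medians gave 5 lower in ICH against sham and 8 higher in feb against ICH. Quantile normalization gave 6 lower in ICH against sham, and 2 higher and 2 lower in feb against sham, and TMM factors 5 lower in ICH against sham and 2 higher in feb against sham. Without the fold limit they were 18 and 11, 19 and 11, and 24 and 5. The cause of these shifts, beyond the pseudocount, was not tested.

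Leaving out 1 mouse at a time gave 2 to 12 higher and 2 to 5 lower in ICH against sham, 0 to 14 and 1 to 5 in feb against ICH, and 1 to 10 and 0 to 2 in feb against sham. Sham mouse 2 had the greatest effect on the sham comparisons: without it 12 were higher in ICH and 10 in feb mice, and 2 members, Mir6903 and Mir5121, had an adjusted p under 0.05 in ICH against sham (0 to 2 over all omissions), while in the other comparisons none did. Omission of ICH mouse 1, 2 or 3 gave 4, 4 and 5 higher in ICH against sham, and of ICH mouse 1 or 2 gave 5 lower. In feb against ICH, 14 were higher without ICH mouse 1, 0 without ICH mouse 2 and 10 without feb mouse 1, and 1 was lower without ICH mouse 2 and 5 without ICH mouse 3. In feb against sham, 2 were higher without sham mouse 1, 8 without feb mouse 2 and 1 without feb mouse 3, and 0, 2 and 2 were lower without sham mouse 2, sham mouse 3 and feb mouse 2.

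The replicate numbers did not pair the mice, with correlations of same-numbered deviations from -0.29 to 0.05, and with the replicate block 2 members were higher and 3 lower in ICH against sham, 3 and 3 in feb against ICH, and 5 and 1 in feb against sham. Of the calls, those of Mir1291 and Mir214 in ICH against sham and of Mir6363 in feb against ICH were lost only with the larger pseudocount. Calls of Mir136 in feb against sham were lost in 11 of 20 alternatives, and of Mir434 in feb against ICH in 8 of 20, the replicate block among them (log2 fold change 1.11). Limits of 0.2, 0.3, 0.6, 0.8 and 1 RPM would give 371, 299, 163, 130 and 113 members.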
